A study of Mus musculus with 6 samples.

Results

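Mitochondrial ribosomal protein genes were compared between CD93+ and CD93- haematopoietic stem cells (HSCs). They are the genes whose symbol is Mrpl or Mrps followed by a number and at most a letter from a to c. The rule found 78 of the 47937 gene identifiers in the table, 48 named for the large subunit and 30 for the small subunit. They stand for 77 symbols, because Mrps23 has another identifier, which had no read in any library. The 77 identifiers found in the GENCODE annotation lie on 17 chromosomes of GRCm38. Of all 78, 76 had a mean normalized count (reads divided by the size factor of the library) of at least 10 and were tested, and Mrpl53 and the unread Mrps23 identifier were not.

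Both groups of cells were taken from wild-type C57BL/6 male mice, 8 weeks old, and came from bone marrow. Magnetic beads removed lineage-positive cells, and HSCs were then sorted as LSK+CD34-CD48-Flt3-Slam1+ cells, where LSK means lineage-negative, Sca-1+ and Kit+. Staining for CD93, a surface receptor, split the HSCs into CD93+ cells and CD93- cells, and 3 libraries of polyadenylated RNA were sequenced from each. The labels call the libraries biological replicates without saying which animals gave which library, so p-values measure only the spread between these libraries.

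Mitochondria carry ribosomes of their own, which translate the few messenger RNAs encoded by mitochondrial DNA into core subunits of the respiratory chain and of ATP synthase. Their ribosomal RNA is transcribed inside the organelle, whereas all of their proteins are encoded in the nucleus, made in the cytosol and imported. Some of these proteins have a counterpart in bacterial ribosomes and others are found only in mitochondria. HSCs are known for low reliance on oxidative phosphorylation while quiescent.

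The promoters of the genes were searched for 3 motifs. The matches do not depend on the read counts, but the choice of tested genes as a background does, and the members searched include the untested Mrpl53. RefSeq promoters on GRCm38.p6, each running from 250 bases before to 50 bases after a start, were found for 68 of the 77 symbols (74 promoters). The letters CCGGAAG, the core bound by ETS factors such as GABP, stood on either strand in promoters of 25 genes, or 33.8% of the 74 promoters. The share was 18.4% of the 11077 promoters of tested genes and 8.86% of all 32851 promoters. The letters AAGATGGCG, part of the site of YY1, were found on either strand in 10.8% of the members' promoters, against 3.27% of promoters of tested genes and 1.40% of all. The letters CGCATGCG, the core of the NRF1 site, read the same on both strands and were found in 9.46% of the members' promoters, against 4.06% of those of tested genes and 1.87% of all. They stood in Mrpl9, Mrpl10, Mrpl17, Mrpl22, Mrpl32, Mrpl39 and Mrps18b. At least 1 of these 3 motifs, none of which contains another, stood in promoters of 35 of the 68 genes. That was 47.3% of the members' promoters, against 24.0% of promoters of tested genes and 11.5% of all, and enrichment was not tested. A match of letters is a description of the window and does not show that a factor binds there. The stretches of 100 bases that follow lie upstream of the annotated starts of 7 members. They were chosen after the matches were known to show where the motif stands in genes of both subunits. Capitals mark the NRF1 letters in Mrpl9, the ETS letters and then the NRF1 letters in Mrpl22, and the ETS letters in the others, as the reverse complement in Mrps27 and at 2 places in Mrpl43.
Mrpl9, chr3:94443218-94443317, plus strand: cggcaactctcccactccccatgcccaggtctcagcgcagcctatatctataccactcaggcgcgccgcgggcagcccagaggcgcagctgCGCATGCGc
Mrpl22, chr11:58171561-58171660, plus strand: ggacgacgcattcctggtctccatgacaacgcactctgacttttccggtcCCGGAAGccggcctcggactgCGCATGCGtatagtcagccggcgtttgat
Mrpl34, chr8:71464826-71464925, plus strand: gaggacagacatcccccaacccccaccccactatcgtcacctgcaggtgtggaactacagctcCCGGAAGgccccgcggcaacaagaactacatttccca
Mrpl43, chr19:45006443-45006542, minus strand: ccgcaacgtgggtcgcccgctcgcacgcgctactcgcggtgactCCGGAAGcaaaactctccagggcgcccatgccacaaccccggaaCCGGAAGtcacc
Mrps18a, chr17:46110886-46110985, plus strand: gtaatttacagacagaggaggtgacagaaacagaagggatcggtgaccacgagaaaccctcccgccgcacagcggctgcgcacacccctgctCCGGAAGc
Mrps22, chr9:98601680-98601779, minus strand: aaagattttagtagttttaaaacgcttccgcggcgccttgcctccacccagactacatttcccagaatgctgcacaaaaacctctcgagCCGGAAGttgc
Mrps27, chr13:99344686-99344785, plus strand: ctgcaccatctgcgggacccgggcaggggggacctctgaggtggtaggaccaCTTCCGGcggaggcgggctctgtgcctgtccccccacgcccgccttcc

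Many of the genes also share their start region with a neighbour on the opposite strand. A gene pointing away from the member, with its start within 1000 bp and no overlap, was found for 18 of 77 members (23.4%), against 1197 of 10798 tested protein-coding genes (11.1%). Mrps12 starts 172 bp from Sars2, the mitochondrial seryl-tRNA synthetase, and Mrpl49 starts 59 bp from Fau, which encodes a cytosolic ribosomal protein. Mrpl32 starts 75 bp from the proteasome gene Psma2. Exons of 27 members overlap another gene on the opposite strand and those of 8 overlap one on the same strand, 32 members in all. The sources used here do not give the strand setting of the counting, and reads in those overlaps cannot be told apart.

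The libraries differed in depth and in their levels of cell type markers. CD93+ replicates 1, 2 and 3 had 9509304, 5794528 and 7152750 reads assigned to genes, and CD93- replicates 1, 2 and 3 had 2832653, 4614396 and 3003095. CD93- replicate 1 stands apart, with a read for 4429 genes against 10752 to 17334 in the others, and with 6 of 12 HSC markers (Fgd5, Hoxa9, Ly6a, Procr, Slamf1 and Tek) at 0. All 12 were read in the other 5 libraries. The summed level of the HSC markers was 2522 to 3513 reads per 1000000 assigned reads (CPM) in CD93+ and 3440 to 5707 CPM in CD93-. The 12 neutrophil markers summed to 3.11 to 284 CPM in CD93+ and to 0, 12991 and 9276 CPM in CD93- replicates 1, 2 and 3, and the 10 B lineage markers to 75.6 to 99.5 CPM and to 0.706, 11122 and 34023 CPM. The 9 mast cell and basophil markers summed to 94.7 to 1057 CPM in CD93+ and 0 to 27.5 CPM in CD93-, and the 9 erythroid markers to 124 to 250 and 0 to 82.9 CPM. The 12 genes of G2 and mitosis summed to 1987 to 2484 CPM in CD93+, against 2126, 200.03 and 446 CPM in CD93- replicates 1, 2 and 3. The part of these differences in the results on ribosomal protein genes was not tested. Cd93 itself had 906, 1001 and 550 reads in CD93+ replicates 1, 2 and 3, and 0, 419 and 38 in CD93- replicates 1, 2 and 3, and by normalized count CD93- replicate 2 lay inside the CD93+ range.

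Nearly every mitochondrial ribosomal protein gene was read in nearly every library except CD93- replicate 1. At least 1 read was found for 77, 76 and 77 of the 78 in CD93+ replicates 1, 2 and 3, and for 13, 68 and 75 in CD93- replicates 1, 2 and 3. With every library thinned to 2832653 reads, the counts were 76, 76 and 77 in CD93+ and 13, 67 and 75 in CD93-, within 1 of the counts at full depth. In all, 10 members were read in all 6 libraries and 57 in every library but CD93- replicate 1. Among the 76 tested members, 82.9% had no read in CD93- replicate 1, against 71.0% of all 11805 tested genes. That order was turned round in CD93- replicates 2 and 3, where 10.5% and 1.32% of the members and 26.4% and 16% of all tested genes had none. Of the 80 tested genes for cytosolic ribosomal proteins, the parts of the ribosome outside mitochondria, 17.5% had no read in CD93- replicate 1. In bulk libraries, fewer cells of a type and less RNA per cell cannot be told apart.

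**Figure D1:**
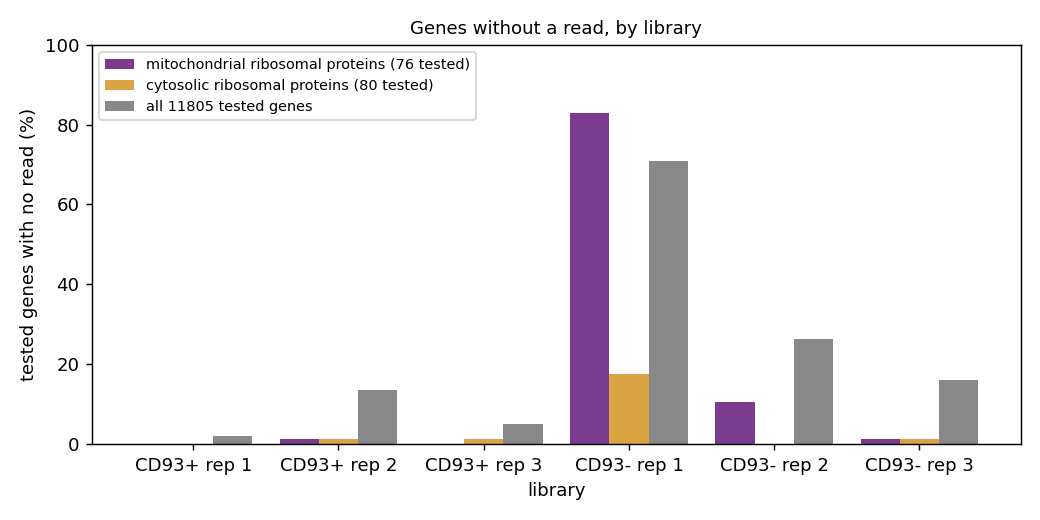
Share of tested genes with no read (percent, vertical axis) in each library (horizontal axis), for mitochondrial ribosomal protein genes, cytosolic ribosomal protein genes and all tested genes. The bars of CD93- replicate 1 stand at 82.9%, 17.5% and 71.0%, and the mitochondrial ribosomal protein bars of the other libraries are at 10.5% or lower.

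The members with no read outside CD93- replicate 1 were few. In CD93- replicate 2 they were Mrpl22, Mrpl24, Mrpl38, Mrpl49, Mrpl53, Mrps6, Mrps18b, Mrps22, Mrps31 and the unused Mrps23 identifier. In CD93- replicate 3 they were Mrps2, Mrpl53 and that identifier, and in CD93+ replicate 2 Mrps6 was unread besides it. Of the tested members, 6 had no read in CD93- replicates 1 and 2 (Mrpl22, Mrpl24, Mrps6, Mrps18b, Mrps22 and Mrps31), or 6 of 76 where 22% of all tested genes had none. No tested member was read in every CD93+ library and in no CD93- library, a pattern shown by 4.6% of tested genes. Mrpl53, too low to be tested, had 3, 11 and 8 reads in CD93+ replicates 1, 2 and 3 and no read in any CD93- library. A floor of 3 reads over the CD93- group puts its CPM at least 3.41-fold higher in CD93+. That bound is 1.91 without CD93- replicate 2 and 5.11 without CD93+ replicate 1, and it covers counting error only.

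**Figure D2:**
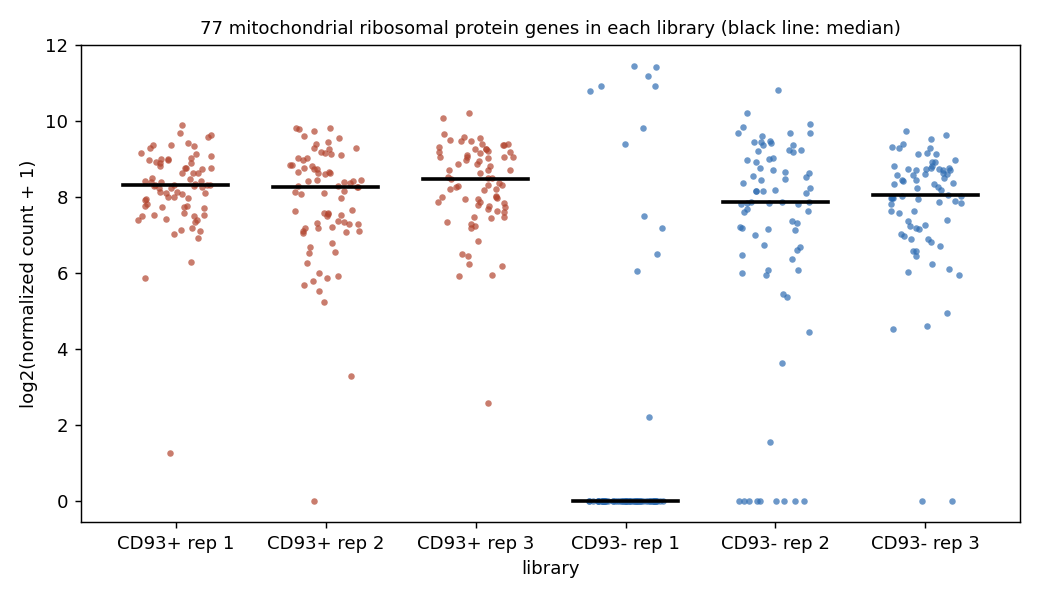
Each point is a mitochondrial ribosomal protein gene in a library, as log2(normalized count + 1), with a black line at the median; the unread Mrps23 identifier is left out. Most points of CD93- replicate 1 lie at 0 and a few lie above every point of the other libraries, whose medians lie close together.

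The median normalized count of the members was 315, 296 and 342 in CD93+ replicates 1, 2 and 3, and 0, 234 and 262 in CD93- replicates 1, 2 and 3. Reads of CD93- replicate 1 were concentrated in the 13 genes it did contain. Its 6 highest members held 86.8% of its 8605 reads on mitochondrial ribosomal protein genes. The 6 highest members of each other library held 17.3% to 20.0% in CD93+ and 18.4% to 25.3% in CD93-. The 6 were Mrpl9 with 1537 reads, Mrps2 with 1510, Mrpl49 with 1300, Mrpl4 with 1077, Mrpl1 with 1067 and Mrps5 with 976. By normalized count they stood 3.73-fold (Mrpl4) to 6.12-fold (Mrpl1) above the highest other library. The next were Mrpl18 with 502 reads and Mrpl51 with 371, then Mrps18a, Mrpl38, Mrpl33 and Mrpl23 with 36 to 99 reads, and Mrpl48 with 2. In CD93- replicate 1, 7 of these 13 members (53.8%) were above every other library, against 1530 of the 3429 tested genes it read (44.6%).

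No mitochondrial ribosomal protein gene passed the test between CD93+ and CD93- HSCs. Fold changes were CD93+ over CD93- from limma on log2(normalized count + 1), a scale that understates the change of low genes. Where a CD93- library is at 0 and the others are high, it gives a larger change than the mean counts do. Mrpl24, with mean normalized counts of 445 in CD93+ and 140 in CD93-, had a log2 fold change of 5.89 by limma and 1.67 by the authors. The median over members was 2.75 by limma and 0.55 by DESeq2. At an adjusted p (Benjamini-Hochberg) under 0.05, 0 of 76 members were called, and 0% of all 11805 tested genes were. The smallest adjusted p by limma was 0.262 (Mrps18b). At an unadjusted p under 0.05, 3 members were higher in CD93+ and 0 lower, where 11.8% of all tested genes were higher and 0.381% lower. The imbalance over all genes depended on the scaling: with quantile scaling 5 members were higher and 0 lower, where 5.84% of all genes were higher and 7.76% lower. On recovered reads, edgeR called 0 of 76 members and 0% of all genes. At an unadjusted p under 0.05 edgeR had 0 members in either direction, where 9.04% of all genes were higher and 1.51% lower. DESeq2 called 0 of the 74 members with an adjusted p, against 6.07% of genes. With the replicate number as a block, limma called 0 members and 0.203% of all tested genes. In the authors' deposited table, 0 of 74 members with an adjusted p were under 0.05, with 0.431 the smallest, against 5.97% of the genes in that table.

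The fold changes were mostly positive, and most of their size rested on CD93- replicate 1. Of the 76 members, 71 had a log2 fold change above 0 (93.4%), against 79.9% of all tested genes, and the median was 2.75, against 2.36. Quantile scaling moved the median of all genes to 0.02 and that of the members to 0.71, with 56 positive and 20 negative. The 63 members unread in CD93- replicate 1 were all positive, with a median of 2.96, and the 13 read there had a median of 0.29 with 8 positive. Without CD93- replicate 1, 48 were positive and 28 negative (63.2% positive, against 60.2% of all genes), and the median was 0.31, against 0.44. In that comparison 52 members (68.4%) lay within a log2 fold change of 1 in either direction, against 42.6% of all genes. Of the rest, 19 lay above and 5 below. The members also had higher mean normalized counts, with a median of 280 against 158 over all tested genes. The part of level in this contrast was not tested. Again 0 members were called by limma without CD93- replicate 1, where 0.00833% of genes were, and the smallest adjusted p was 0.107 (Mrps2). At an unadjusted p under 0.05, 4 members were higher and 1 lower, against 12.4% and 4.31% of genes. The normalized counts of CD93+ lay above all of CD93- for 15 members (19.7%), against 18.3% of all tested genes, and below for 0, against 1.92%. Without CD93- replicate 1 the counts were 17 above (background 21.8%) and 11 below (background 13.8%). These shares are near those of all tested genes.

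**Figure D3:**
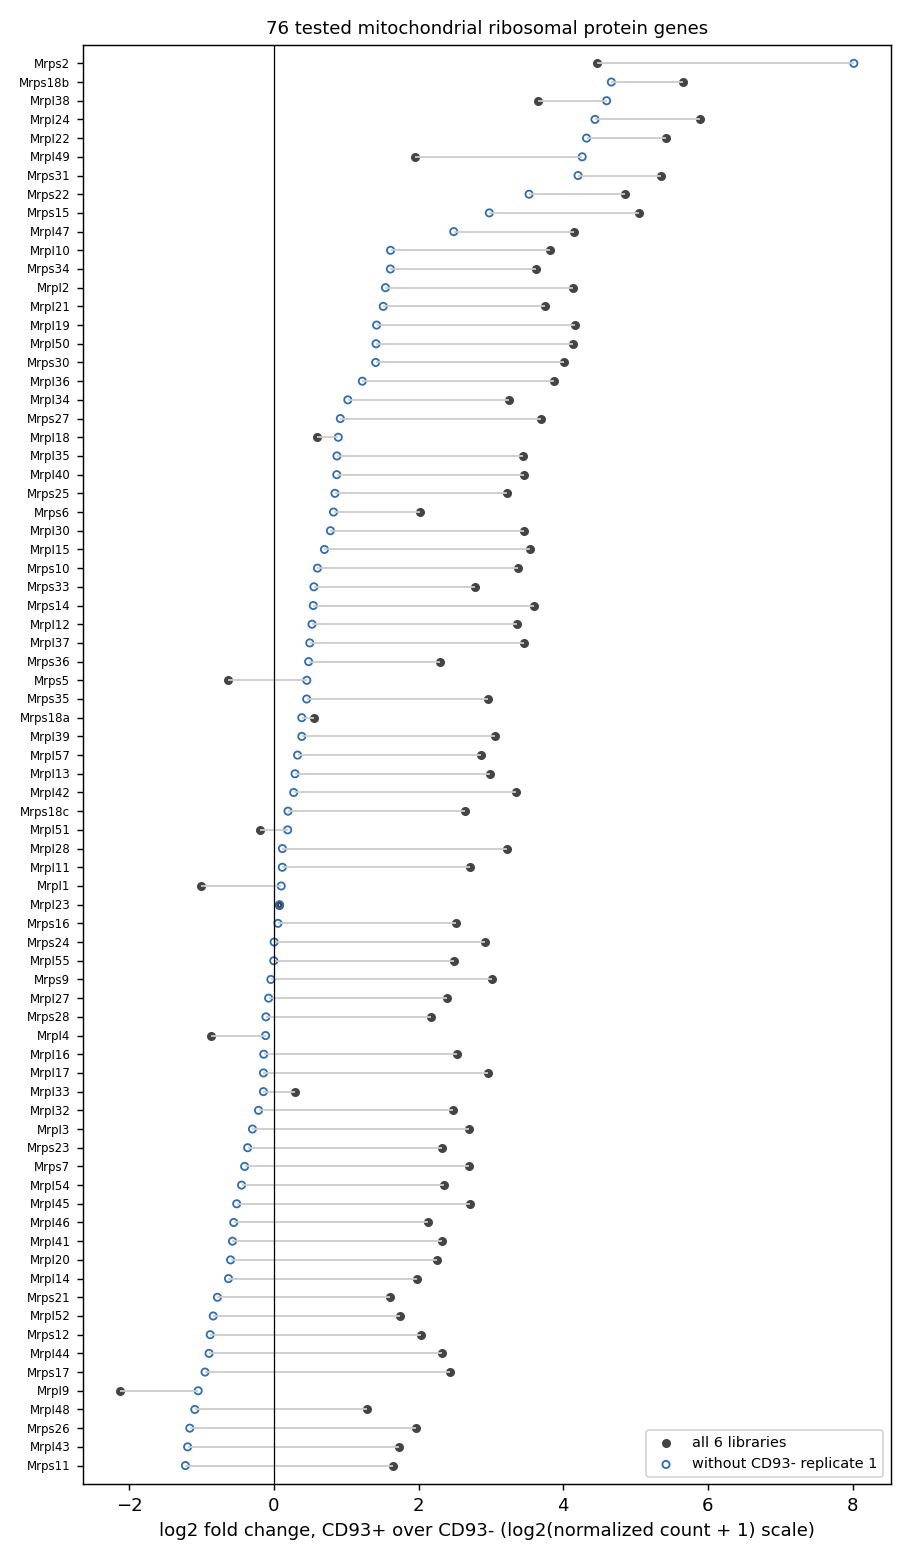
Log2 fold change of CD93+ over CD93- (horizontal axis, on the log2(normalized count + 1) scale) for each of 76 tested members, with all 6 libraries (filled) and without CD93- replicate 1 (open). The filled points lie mostly right of 0, at a median of 2.75, and the open points surround 0, at a median of 0.31.

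Among genes named for the large subunit (47 tested, 0 called, median log2 fold change 2.71), Mrpl24 and Mrpl22 had the highest fold changes. Mrpl24, on chr3:87919506-87923672, whose bacterial counterpart sits at the exit of the nascent chain, had normalized counts of 473, 399 and 464 in CD93+ replicates 1, 2 and 3, against 0, 0 and 420 in CD93- replicates 1, 2 and 3. The CD93- library with reads lay between the CD93+ libraries. Its log2 fold change was 5.89 (SE 2.63, adjusted p = 0.423, limma). Mrpl22, on chr11:58171661-58179565, whose bacterial counterpart lines the exit tunnel, had 215, 164 and 206 in CD93+, against 0, 0 and 93.8 in CD93-. Every CD93+ library lay above every CD93- library, with a log2 fold change of 5.42 (SE 2.10, adjusted p = 0.333, limma). Mrpl2, on chr17:46646229-46650139, the counterpart of the bacterial protein next to the site of peptide bond formation, had 481, 785 and 663 in CD93+, against 0, 142 and 328 in CD93-. Those groups did not overlap either (log2 fold change 4.13, SE 2.53, adjusted p = 0.534, limma), and without CD93- replicate 1 the log2 fold change was 1.54. Mrpl47, chosen after its values were seen, had 145, 196 and 193 in CD93+, against 0, 42.8 and 21.9 in CD93-, with a log2 fold change of 4.15.

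Of the 5 members with a negative fold change, all had their highest value in CD93- replicate 1. Mrpl9, on chr3:94443318-94451130, had normalized counts of 240, 101 and 113 in CD93+ replicates 1, 2 and 3, against 2790, 713 and 119 in CD93- replicates 1, 2 and 3. Its log2 fold change was -2.13 (SE 1.73, adjusted p = 0.614, limma), and -1.05 without CD93- replicate 1. Mrpl1, on chr5:96209493-96266727, the protein of the stalk beside the exit site for transfer RNA, had 215, 132 and 316 in CD93+, against 1937, 145 and 259 in CD93-. Apart from CD93- replicate 1 its groups interleave, and the log2 fold change of -1.0 (SE 1.66) was 0.10 without that library. Mrpl4, on chr9:21002738-21008839, had 395, 313 and 415 in CD93+, against 1955, 524 and 309 in CD93-, with a log2 fold change of -0.87 (SE 1.23) and of -0.12 without CD93- replicate 1. Mrpl51, on chr6:125191801-125196269, which has no bacterial counterpart, had 354, 283 and 422 in CD93+, against 673, 223 and 419 in CD93-. Its log2 fold change was -0.19 (SE 1.33), and 0.19 without CD93- replicate 1.

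Mrpl12, Mrpl18, Mrpl44 and Mrpl49 showed no separation of the groups with all libraries. Mrpl12, on chr11:120484613-120489065, forms the stalk that recruits translation factors, and in human cells its protein has also been found bound to the mitochondrial RNA polymerase. It had 629, 348 and 677 in CD93+ replicates 1, 2 and 3, against 0, 235 and 574 in CD93- replicates 1, 2 and 3, with a log2 fold change of 3.37 (SE 2.66, adjusted p = 0.611, limma) and of 0.53 without CD93- replicate 1. Mrpl18, on chr17:12911349-12916345, was read in all 6 libraries, with 957, 754 and 1089 in CD93+, against 911, 683 and 363 in CD93-. The 2 groups overlapped and its log2 fold change was 0.60 (SE 0.89, adjusted p = 0.723, limma). Without CD93- replicate 1 the log2 fold change of Mrpl18 was 0.89, and every CD93+ library stood above the CD93- libraries left. Mrpl44 and Mrpl49 were chosen after their values were seen. Mrpl44 had 437, 430 and 451 in CD93+, the closest agreement of any tested member, against 0, 780 and 861 in CD93-. Its log2 fold change was 2.33 with all libraries and -0.90 without CD93- replicate 1, since both libraries left stood above CD93+. Mrpl49 had 344, 308 and 494 in CD93+, against 2360, 0 and 381 in CD93-, so that CD93- held both its highest and its lowest value.

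Among genes named for the small subunit (29 tested, 0 called, median log2 fold change 2.79), the 3 homologues named Mrps18 are given first. Mrps18c is the form that takes the place of the bacterial protein, Mrps18b also sits in the small subunit, and Mrps18a is found in the large subunit despite its name. Mrps18b, on chr17:35910379-35916389, had normalized counts of 179, 270 and 162 in CD93+ replicates 1, 2 and 3, against 0, 0 and 61.0 in CD93- replicates 1, 2 and 3. The groups did not overlap, and the log2 fold change was 5.66 (SE 1.99, adjusted p = 0.262, limma). Mrps18c, on chr5:100798627-100804471, had 161, 180 and 213 in CD93+, against 0, 102 and 252 in CD93-, which overlap (log2 fold change 2.64, SE 2.45, adjusted p = 0.625, limma). The log2 fold change of Mrps18c was 0.19 without CD93- replicate 1. Mrps18a, on chr17:46110986-46128910, had 364, 281 and 368 in CD93+, against 180, 275 and 239 in CD93-. Every CD93+ library was above every CD93- library, by the narrowest of margins in CD93+ replicate 2, and the log2 fold change was 0.55 (SE 1.48, adjusted p = 0.846, limma), and 0.38 without CD93- replicate 1. The difference between the homologues was not tested.

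Mrps15 and Mrps31 were also among the highest fold changes. Mrps15, on chr4:126046925-126055532, the counterpart of a bacterial protein that binds ribosomal RNA early in assembly, had 499, 582 and 662 in CD93+ replicates 1, 2 and 3, against 0, 11.4 and 433 in CD93- replicates 1, 2 and 3. The CD93+ libraries were all above, with a log2 fold change of 5.04 (SE 2.52, adjusted p = 0.456, limma). Mrps31, on chr8:22411361-22429665, found only in mitochondrial ribosomes, had 166, 145 and 329 in CD93+, against 0, 0 and 117 in CD93-. Those groups did not overlap either, and the log2 fold change was 5.35 (SE 2.18, adjusted p = 0.370, limma). Without CD93- replicate 3, in which each of these had its highest CD93- value, limma called 6 members higher in CD93+ (Mrpl22, Mrpl24, Mrps15, Mrps18b, Mrps22 and Mrps31). They are 6 of 76 members, where 16.2% of all genes tested without that library were called higher.

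Mrps12, Mrps5, Mrps2 and Mrps36 each showed another pattern. Mrps12, on chr7:28739641-28741820, the counterpart of the bacterial protein that governs decoding accuracy, had 299, 109 and 363 in CD93+ replicates 1, 2 and 3, against 0, 417 and 427 in CD93- replicates 1, 2 and 3. Its log2 fold change was 2.03 (SE 2.74, adjusted p = 0.701, limma) and turned to -0.88 without CD93- replicate 1. Mrps5, on chr2:127587222-127606829, had 256, 277 and 220 in CD93+, against 1772, 353 and 93.8 in CD93-, with CD93- on both sides of CD93+ (log2 fold change -0.64, SE 1.65, and 0.45 without CD93- replicate 1). Mrps2, on chr2:28468066-28471178, was chosen after its values were seen. It had 674, 660 and 862 reads in CD93+, against 1510, 2 and 0 reads in CD93-. Its mean normalized count was 454 ± 126 in CD93+ and 914 ± 1582 in CD93- (SD, n = 3 each), lower in CD93+, while its log2 fold change was 4.47 (SE 3.09), because the log scale weights the libraries near 0. Without CD93- replicate 1 the log2 fold change of Mrps2 was 8.02. Mrps36, on chr13:100735955-100744659, is now regarded as a part of the alpha-ketoglutarate dehydrogenase complex and not of the ribosome. It had 57.1, 62.6 and 59.7 in CD93+, against 0, 60.9 and 29.7 in CD93-, and was among the lowest and most even members (log2 fold change 2.29, SE 1.90, adjusted p = 0.619, limma).

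Levels between genes were compared as CPM per kb of exon (RPKM). In CD93+ they ran from 1.41 for Mrpl53 to 151 for Mrpl18, with a median of 29.9. Mrpl18 averaged 151 ± 30.4 RPKM in CD93+ and 97.8 ± 37.6 RPKM in CD93- (SD, n = 3 each). Mrpl2 averaged 123 ± 26.3 and 29.1 ± 29.9 RPKM, Mrpl28 114 ± 21.6 and 67.8 ± 58.8 RPKM, and Mrpl36 114 ± 28.5 and 39.2 ± 49.4 RPKM in CD93+ and in CD93-. The next member in CD93+, Mrpl50, averaged 82.9 ± 9.63 RPKM there, and differences between neighbours in that order were not tested. Mrpl28, on chr17:26123500-26126613, had normalized counts of 799, 574 and 719 in CD93+, against 0, 604 and 672 in CD93-, and a log2 fold change of 3.22 (SE 2.70) that was 0.12 without CD93- replicate 1. Mrpl36, on chr13:73328513-73332178, had 563, 460 and 732 in CD93+, against 0, 482 and 125 in CD93-. Its CD93- replicate 2 lay inside the CD93+ range (log2 fold change 3.87, SE 2.58, adjusted p = 0.565, limma). Exon length here is the union over transcripts. By the length of the principal transcript, Mrpl42 came first in CD93+, and Mrpl18, Mrpl28, Mrpl36 and Mrpl2 ranked 2, 3, 4 and 5.

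**Figure D4:**
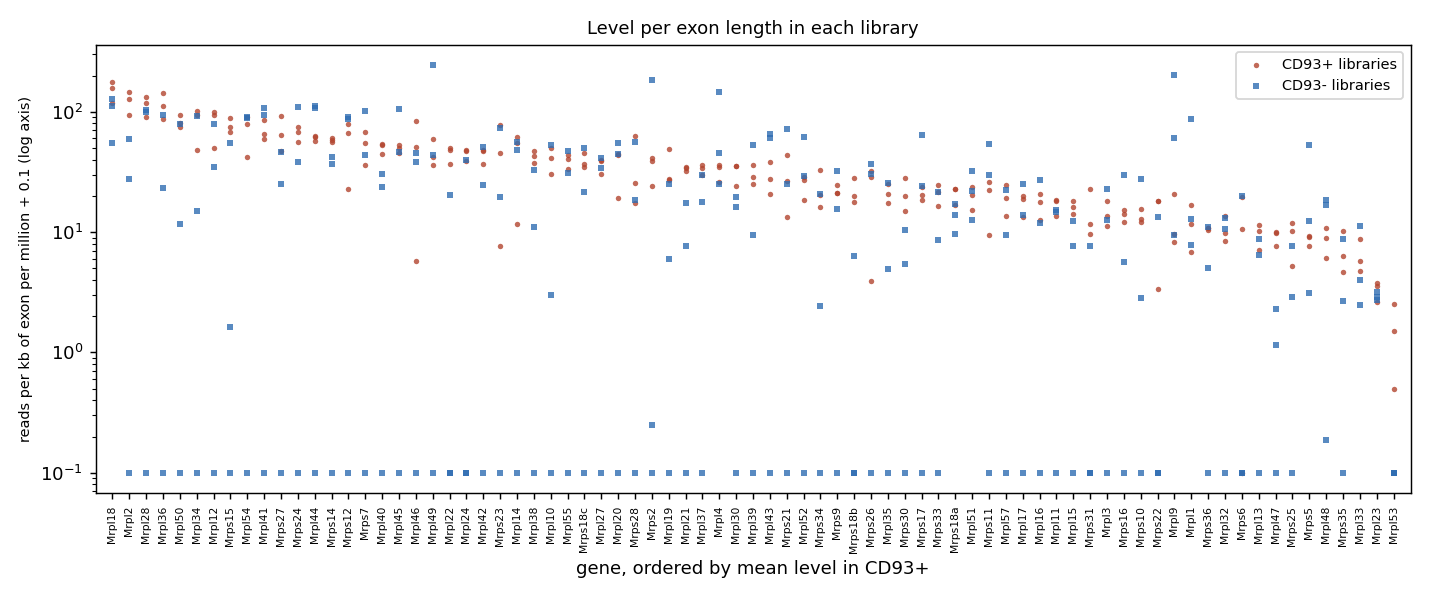
RPKM, with 0.1 added and on a log axis, for each member in each CD93+ library (circles) and each CD93- library (squares), ordered by the CD93+ mean. Squares along the bottom are unread genes, most of them of CD93- replicate 1, while the circles of most members lie close together.

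The spread of the members within CD93+ was small for most. The coefficient of variation of the normalized count over the 3 CD93+ libraries had a median of 22.4% over tested members, against 43.3% over all tested genes. The members also had a higher mean normalized count, with a median of 280 against 158. The lowest was 2.40% for Mrpl44 and the highest 97.1% for Mrps6. The tested members next to Mrps6 in spread, named after their values were seen, were Mrpl46 (83.4%), Mrps23 (80.0%), Mrps26 (71.3%), Mrps28 (66.5%), Mrps22 (64.2%) and Mrpl14 (62.6%). All of these 7 but Mrps28 were lowest in CD93+ replicate 2 among the CD93+ libraries. Mrps22 had 316, 59.4 and 314 in CD93+ replicates 1, 2 and 3, against 0, 0 and 249 in CD93- replicates 1, 2 and 3. Mrpl46, on chr7:78775236-78783531, and Mrps11, on chr7:78783119-78792989, overlap on opposite strands, and Mrps11 was also chosen after its values were seen. Mrpl46 had 315, 36.5 and 518 in CD93+, against 0, 283 and 255 in CD93-, and Mrps11 had 210, 92.7 and 246 in CD93+, against 0, 516 and 303 in CD93-. Across the 76 tested members, which share the library, Pearson correlations of log2 values were 0.63 to 0.89 within CD93+. All tested genes gave 0.70 to 0.88 within CD93+. For the members the correlations were 0.31 between CD93- replicates 2 and 3, and -0.13 and -0.21 between CD93- replicate 1 and those. Over all tested genes the same 3 pairs gave 0.46, 0.23 and 0.24. Between a CD93+ and a CD93- library the members gave -0.0069 to 0.50, and all tested genes 0.28 to 0.57.

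As a share of all reads, the members together overlapped between the groups. Reads on the 78 genes summed to 6251, 5535 and 6940 CPM in CD93+ replicates 1, 2 and 3, and to 3038, 5902 and 4994 CPM in CD93- replicates 1, 2 and 3. CD93- replicate 2 lay between CD93+ replicates 2 and 1. The means were 6242 ± 702 CPM in CD93+ and 4645 ± 1464 CPM in CD93- (SD, n = 3 each), a ratio of 1.34, and of 1.15 without CD93- replicate 1. Genes named for the large subunit summed to 4088, 3551 and 4542 CPM in CD93+ and to 2125, 3574 and 3381 CPM in CD93-. Those named for the small subunit summed to 2163, 1984 and 2398 CPM in CD93+ and to 913, 2328 and 1613 CPM in CD93-. The split is by name only, so the small subunit sums include Mrps18a and Mrps36. It took no account of where the protein of any other member sits, so these 2 need not be the only ones misplaced. By that split, large over small subunit reads came to 1.89, 1.79 and 1.89 in CD93+, and to 2.33, 1.54 and 2.10 in CD93-, which spread on both sides of CD93+.

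**Figure D5:**
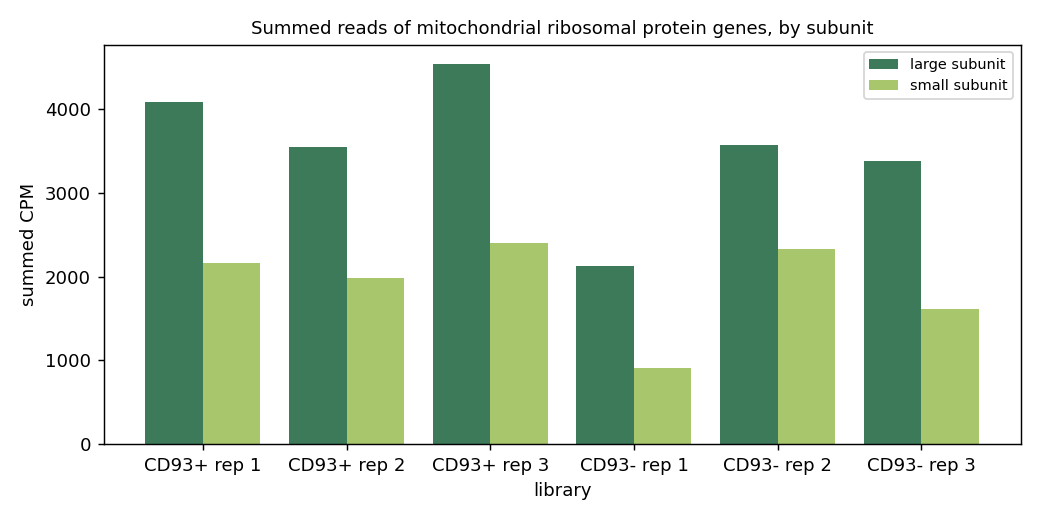
Summed CPM (vertical axis, from 0) of genes named for the large and for the small subunit in each library (horizontal axis). Both bars are lowest in CD93- replicate 1, at 2125 and 913 CPM, and CD93- replicate 2 lies within the range of the CD93+ libraries.

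The members with a bacterial counterpart and those specific to mitochondria are described apart, since they entered the ribosome at different points of its history. The 46 with a counterpart had a median log2 fold change of 2.70 and summed to 3916, 3273 and 4283 CPM in CD93+ replicates 1, 2 and 3, against 2384, 3818 and 2788 CPM in CD93- replicates 1, 2 and 3. Of the 31 mitochondria-specific identifiers, 29 were tested, with a median log2 fold change of 2.86, and they summed to 2322, 2249 and 2643 CPM in CD93+, against 653, 2070 and 2200 CPM in CD93-. In each class 0 members were called by limma, and the difference between the classes was not tested. Mrps36 was placed in neither class.

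None of the other listed genes of mitochondrial translation was called by limma with all libraries and a pseudocount of 1. The 6 ribosomal subunits listed under other names (Dap3, Aurkaip1, Chchd1, Ptcd3, Gadd45gip1 and Ict1) had 0 called in either direction, with a median log2 fold change of 2.19, against 2.36 over all tested genes. Their median turned to -0.09 without CD93- replicate 1, with 2 of 6 positive. The 11 tested translation factors also had 0 called, with a median of 3.15, and of 0.43 without CD93- replicate 1. They summed to 611, 586 and 658 CPM in CD93+ replicates 1, 2 and 3, against 0.353, 517 and 568 CPM in CD93- replicates 1, 2 and 3. Of the 11, only Gfm2 had a read in CD93- replicate 1. Tufm, the elongation factor that delivers transfer RNA, had 616, 494 and 759 reads in CD93+, against 0, 272 and 184 in CD93-. Mtrf1, a release factor, had 325, 202 and 356 reads in CD93+ and 0 in all 3 CD93- libraries. That pattern, reads in every CD93+ library and in no CD93- library, was shown by 4.6% of tested genes. The CPM of Mtrf1 was at least 137-fold higher in CD93+ with a floor of 3 reads over the CD93- group. The bound was 76.5-fold without CD93- replicate 2. These bounds cover counting error only, and 71.0%, 26.4% and 16% of all tested genes had no read in CD93- replicates 1, 2 and 3. Mtrf1 missed the threshold narrowly by limma (log2 fold change 7.45, SE 1.261, adjusted p = 0.0558). That was the smallest adjusted p of any tested gene, but many genes were tied at it, so it does not rank Mtrf1 first. The unadjusted p of Mtrf1 was 0.000351, where the smallest of any tested gene was 0.000121 (limma). By DESeq2 Mtrf1 was under the threshold (adjusted p = 0.00318), where 6.07% of all genes were. Mtrf1 was also under the threshold by limma with a pseudocount of 0.5 (adjusted p = 0.0495), without CD93+ replicate 2 (adjusted p = 0.0269) and without CD93- replicate 3 (adjusted p = 0.00762). In those settings, in that order, 1.75%, 6.06% and 16.2% of all tested genes were called.

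Assembly and rRNA modification factors (21 tested), genes of mitochondrial transcription and messenger RNA stability (11 tested) and mitochondrial aminoacyl-tRNA synthetases (17 tested) had 0 called each. Their median log2 fold changes, in that order, were 2.92, 1.65 and 2.77, and without CD93- replicate 1 they were 1.22, -0.06 and 0.48. Tfam, which packages mitochondrial DNA and starts its transcription, had 707, 522 and 638 reads in CD93+ replicates 1, 2 and 3, against 0, 0 and 105 reads in CD93- replicates 1, 2 and 3. All CD93+ libraries were above by normalized count, and its log2 fold change was 6.10 (SE 2.34, adjusted p = 0.329, limma). The insertion factors Oxa1l and Cox18 were tested too and neither was called. Tufm, Mtrf1 and Tfam were named after their values were seen.

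Transcripts of mitochondrial DNA, which these ribosomes are built on and translate, were not called by limma. Of the 7 tested messenger RNAs 3 had a positive fold change, with a median log2 fold change of -0.08. Without CD93- replicate 1, 0 of 8 tested were positive, with a median of -1.26, and the median of the 2 ribosomal RNAs was -1.35, against -0.91 with all libraries. All 13 summed to 6787, 9727 and 7731 CPM in CD93+ replicates 1, 2 and 3, against 4714, 14651 and 19701 CPM in CD93- replicates 1, 2 and 3. The large ribosomal RNA, mt-Rnr2, had 3490, 3925 and 4166 reads in CD93+, against 1298, 6428 and 5131 reads in CD93-, with a log2 fold change of -1.06 (SE 0.48, adjusted p = 0.423, limma). These RNAs have near-identical copies in nuclear DNA, so their counts are uncertain, and several of the 13 had fewer than 10 reads in most libraries. The 82 cytosolic ribosomal protein genes had 0 called of 80 tested, with 34 positive and a median log2 fold change of -0.09. Without CD93- replicate 1, 3 of 80 were positive and the median was -0.63. They summed to 27481, 23610 and 31366 CPM in CD93+, against 14501, 43252 and 35258 CPM in CD93-. In CD93- replicates 2 and 3, where neutrophil and B lineage markers were high, the sums of mitochondrial messenger RNAs and of cytosolic ribosomal protein genes were higher than in any CD93+ library. The difference between these lists and the mitochondrial ribosomal protein genes was not tested.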

How the data were processed

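The 6 libraries, 3 of CD93+ and 3 of CD93- HSCs, were grouped by the titles in the labels. STAR, featureCounts (Subread 1.5.0-p1) and DESeq2 1.26 are named in the submitters' processing notes, as are the builds GRCm38 and mm10. Which annotation release and strand setting were used is not given in the sources used here. The authors deposited a signal table, in which each read count is divided by the size factor of its library. Another deposited table holds, for each gene, a mean signal, a log2 fold change, its standard error and Wald score, a p-value and an adjusted p-value. The steps between values gave back whole reads for 100% of values above 0, within a tolerance of 0.001.

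limma 3.58.1 (trended eBayes) was run on log2(normalized count + 1) for the 11805 genes whose mean normalized count reached 10, two-sided, with p-values adjusted over all of them. On the recovered reads, edgeR 4.0.16 and DESeq2 1.42.0 served as alternatives (R 4.3.3). CPM used all assigned reads. Positions, exon lengths and neighbours came from GENCODE M21 on GRCm38, and promoters from RefSeq. The other steps used Python 3.11.15 with pandas 2.3.3, numpy 2.4.6 and matplotlib 3.10.9. The fit was also run on simulated counts, with less spread than the data and no library short of reads for most genes. That run cannot show how the fit behaves on these libraries. The members, lists and motifs were chosen with earlier results of these data known.

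Named members were the 5 with the largest positive and the 5 with the most negative fold change, the 4 with the smallest p, and the 4 with the highest level per kb of exon over all libraries. Up to 5 read in every CD93+ and no CD93- library would have joined them. Mrpl12, Mrps12, Mrps18a, Mrps18b, Mrps18c, Mrps36 and Mrpl58 were named by role. Mrpl58 appears in the table as Ict1 and is not a member by its symbol. Floors use 3 reads over a group. Floors and counts carry counting error only, and reads of amplified libraries are not independent molecules. Alternatives covered the pseudocount, filter, scaling, test, library weights, replicate block, depth and each library left out.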

Additional observations from a re-analysis of the deposited data

How the results depend on the processing

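The number of members called was 0 under every alternative except the removal of CD93- replicate 3, so that leaving out a library gave 0 to 6. The same replicate numbers did not deviate together across the groups (r = 0.037, 0.019 and 0.061), and with the replicate block 0 members were called, against 24 genes in all. The median log2 fold change stayed above 0, at 1.64 with a pseudocount of 10, 3.08 with 0.5, 0.71 with quantile scaling, 0.51 with library weights, 0.68 with edgeR and 0.55 with DESeq2, and from 0.31 to 4.02 with a library left out. The ratio of summed CPM was 1.29 with coding genes as the denominator. Over 30 named genes and 450 alternatives, 410 kept direction and side of the threshold, 29 reversed and 11 gained a call (6 members and Tfam without CD93- replicate 3, and Mtrf1 under 4 alternatives). In all, 19 genes never reversed. Library weights reversed Mrpl1 (0.14), Mrpl51 (0.23), Mrps5 (0.27), Mrps12 (-0.19), Mrpl44 (-0.51) and Mrps11 (-0.62). Quantile scaling reversed Mrps12 (-0.079), Mrps18a (-0.26), Mrps36 (-0.67), Mrpl44 (-0.48) and Mrps11 (-0.48). With edgeR, Mrps12 (-0.017), Mrps2 (-0.47), Mrpl49 (-0.78), Mrpl44 (-0.23) and Mrps11 (-0.46) reversed, and with DESeq2 Mrps12 (-0.13), Mrps2 (-1.01), Mrpl49 (-1.26), Mrpl44 (-0.32) and Mrps11 (-0.58). With a library left out, the log2 fold change ran from -1.77 to 0.10 for Mrpl1, -0.61 to 0.19 for Mrpl51, -1.66 to 0.45 for Mrps5, -0.88 to 3.49 for Mrps12, -0.90 to 3.98 for Mrpl44, -1.22 to 3.28 for Mrps11 and -0.56 to 3.52 for Mrpl46, turning round without CD93- replicate 1. Mrpl49 ran from -1.34, without CD93- replicate 2, to 4.26. The cause was not tested.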
